A study of Sus scrofa with 12 samples.

Results

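Among the many transcripts measured in post mortem pig muscle were 8 early response genes: EGR1, NR4A2, NR4A3, IER2, IER3, IER5, KLF10 and MYC. They were represented by every probe set whose single symbol in the platform annotation is one of these names. This gave 13 probe sets of the 23999 tested, of 6765 genes with a single symbol, with 3 for EGR1, 3 for IER5, 2 for NR4A3 and 1 for each of the others. Their gene IDs matched the RefSeq gene table of Sscrofa11.1 in 13 of 13 cases. Where a gene had several probe sets, the one with the highest mean over all arrays stands for it and the others are given beside it.

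Early response genes are those whose transcription starts within minutes of a stimulus such as stretch, calcium, growth factors or hypoxia, without new protein synthesis. Many of their messenger RNAs are rapidly degraded, so that their level follows recent transcription closely. In skeletal muscle, exercise and injury are well known to induce EGR1, MYC and the NR4A receptors.

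The tissue was semimembranosus, a large hind leg muscle, of 3 female commercial hybrid pigs of about 160 kg from 1 farm, stunned with CO2 at 87% and slaughtered at 1 abattoir. The left leg of each pig gave a portion of 3 to 5 g at each of 4 times after death, 20 min, 2 h, 6 h and 24 h, while the abattoir's cold chain brought the muscle to 4 °C. Time after death is the only labelled difference between the portions of a pig. The 20 min portions, already post mortem, are the earliest reference. Each portion was hybridised to its own array, which gave 12 arrays. The question is how the levels of these genes stood at each later time relative to 20 min in the same animal.

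Median log2 intensity per array ran from 5.89 to 5.94, and any 2 arrays correlated with r between 0.986 and 0.997. The 20 min array of pig 3 had the lowest mean correlation with the other arrays, 0.989. Skeletal muscle fibre markers were bright and even, with a mean log2 level of 14.3 over 8 genes on every array. Macrophage and leukocyte markers (11 genes) averaged 6.85 on the 20 min array of pig 3, the highest of the 12 arrays, and 5.66 on its 24 h array, the lowest. All levels below are log2 intensities after RMA, and errors are SDs over 3 pigs. Fewer expressing cells and less RNA per cell cannot be told apart in such bulk samples.

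Over the whole course, 0 of the 13 probe sets passed the limma F test for any time difference at an adjusted p under 0.05, which 0.00417% of all probe sets did. At an unadjusted p under 0.05 there were 5 of 13, against 8.22% of all probe sets. These were the 2 brighter EGR1 sets, the 2 brighter IER5 sets and MYC. None of the comparisons described below gave a member past the adjusted threshold, so every difference is given as a value with its spread.

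EGR1, a zinc finger transcription factor, had its largest mean difference at the first later time. At 20 min the log2 levels of pigs 1, 2 and 3 were 5.87, 9.33 and 8.73. In the same order it was 5.57, 8.08 and 7.57 at 2 h, then 5.61, 7.94 and 8.20 at 6 h, and finally 5.69, 8.70 and 7.85 at 24 h. Each pig was thus highest at 20 min, but pig 1 lay far below the other pigs at all times, so that the groups overlapped in every comparison. The log2 change from 20 min was -0.90 ± 0.53 at 2 h (SD, n = 3; limma adjusted p = 0.5785), a level 1.87-fold lower, and only 3 probe sets had a lower change. It was -0.72 ± 0.59 at 6 h (adjusted p = 0.488) and -0.56 ± 0.36 at 24 h (adjusted p = 0.3025). The 95% interval of the change at 2 h ran from -1.35 to -0.46, before any adjustment for the number of probe sets. Without pig 2 the change at 6 h was -0.39 (limma adjusted p = 0.968).

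The second EGR1 probe set gave similar levels, with its lowest mean at 24 h instead of 2 h. Its mean was 7.66 ± 1.53 for the 20 min arrays and 7.19 ± 1.69, 7.12 ± 1.46 and 7.08 ± 1.46 for the later times in order, with a change of -0.58 ± 0.32 at 24 h (limma adjusted p = 0.276) that was negative in 3 of 3 pigs. The third set was dim, between 4.54 and 5.63 on all arrays, and its change was 0.09 ± 0.01 at 2 h and -0.16 ± 0.26 at 24 h. The 2 brighter sets correlated over the 12 values with pig means removed (r = 0.74), whereas the dim set did not follow the brightest one (r = -0.07).

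**Figure D1:**
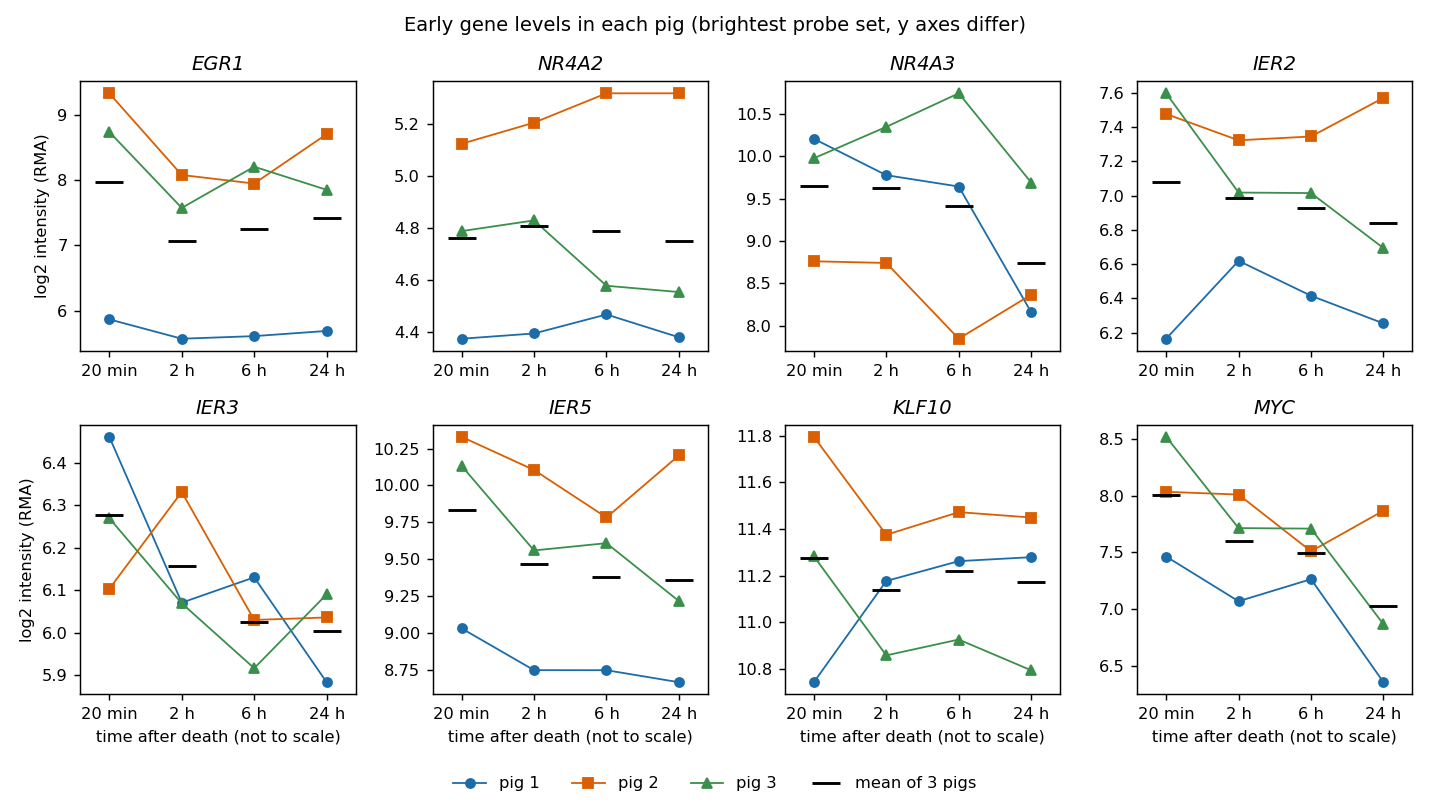
Log2 RMA intensity (y axis, scaled per panel) of the brightest probe set of each early gene against time after death (x axis); lines join the arrays of 1 pig and black bars are means of 3 pigs. EGR1 stayed between 5.57 and 5.87 in pig 1 and between 7.57 and 9.33 in the other pigs, while MYC had its lowest mean at 24 h.

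MYC, a transcription factor that drives growth and ribosome production, had the largest change of the 8 genes at 24 h. At 20 min pigs 1, 2 and 3 had levels of 7.46, 8.03 and 8.52. It was 7.07, 8.01 and 7.71 at 2 h, 7.26, 7.51 and 7.71 at 6 h, and 6.36, 7.87 and 6.87 at 24 h. At 24 h pigs 1 and 3 were below every earlier array of any pig, while pig 2 was close to its 20 min level. The log2 change was -0.41 ± 0.39 at 2 h, -0.51 ± 0.31 at 6 h and -0.97 ± 0.75 at 24 h (limma adjusted p = 0.193). That last change is a 1.97-fold lower mean level, and 21 probe sets had a lower one. Without the 24 h array of pig 2 it was -1.32 and passed (adjusted p = 0.0496), as 1 of 5 to do so among all 23999 probe sets. Without pig 3 it was -0.64 (adjusted p = 0.7095), and without pig 2 it was -1.38 (adjusted p = 0.0750). Without the 20 min array of pig 3 the changes at 2 h and 6 h were -0.18 and -0.28.

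NR4A3 and NR4A2 encode orphan nuclear receptors, which bind DNA without a known natural hormone. NR4A3 was bright, at 10.21 in pig 1, 8.76 in pig 2 and 9.98 in pig 3 at 20 min. It was 9.78, 8.74 and 10.35 at 2 h, 9.64, 7.85 and 10.74 at 6 h, and 8.16, 8.37 and 9.69 at 24 h. The pigs took different courses: pig 1 had its lowest value at 24 h, pig 2 at 6 h, and pig 3 was higher at 2 h and 6 h than at 20 min. The log2 change was -0.03 ± 0.40 at 2 h, -0.24 ± 0.89 at 6 h and -0.91 ± 0.99 at 24 h (limma adjusted p = 0.310), with 3 of 3 pigs lower at 24 h. In pig 1 alone the change was -2.05 at 24 h, and without it the mean change was -0.34 (limma adjusted p = 0.7095).

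The dimmer NR4A3 probe set followed the brighter one over the 12 values (r = 0.875), with changes of 0.15 ± 0.46, 0.23 ± 0.95 and -0.49 ± 0.46 at the 3 later times. NR4A2 was dim, between 4.37 and 5.32 on all arrays. Its time means lay within 0.06 of each other, and 95.3% of all probe sets had a wider range of time means. The 95% interval of its change at 24 h ran from -0.23 to 0.21.

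IER2, IER3 and IER5 are short early response genes named for how fast they are induced. IER2 and IER5 are related nuclear regulators, and IER3 is a stress-inducible protein linked to cell survival. IER5 was the second brightest of the 8 genes, at 9.03 in pig 1, 10.33 in pig 2 and 10.13 in pig 3 at 20 min. It was 8.75, 10.10 and 9.56 at 2 h, 8.75, 9.78 and 9.61 at 6 h, and 8.67, 10.20 and 9.22 at 24 h. Every later array was below the 20 min array of its pig. The log2 change was -0.36 ± 0.19 at 2 h, -0.45 ± 0.15 at 6 h and -0.47 ± 0.41 at 24 h (limma adjusted p = 0.6085, 0.490 and 0.241). Without pig 3 the change of IER5 at 24 h was -0.25 (adjusted p = 0.729). The second IER5 set was lower than 20 min at each time in 3 of 3 pigs too, with -0.49 ± 0.52 at 24 h, and the third, a dim set between 3.77 and 4.20, was at -0.04 ± 0.11 at 24 h.

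For IER2 the level was 6.16, 7.48 and 7.60 in pigs 1, 2 and 3 at 20 min and 6.25, 7.57 and 6.69 at 24 h. Pig 3 alone was clearly lower, and the mean change of -0.24 ± 0.57 (limma adjusted p = 0.588) was 0.09 without that pig. IER3 stood at 6.46, 6.10 and 6.27 at 20 min and 5.88, 6.04 and 6.09 at 24 h. It was the 1 gene of the 8 whose groups did not overlap at 24 h, a pattern of 4.72% of all probe sets, with a change of -0.27 ± 0.27 (limma adjusted p = 0.355). Without pig 1 the change of IER3 was -0.12 (adjusted p = 0.712).

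KLF10, a zinc finger repressor first known as a TGF-beta inducible gene, was the brightest of the 8, and its sign differed between pigs. Its level in pig 1 was 10.74 at 20 min and 11.18, 11.26 and 11.28 at the later times. In pig 2 it was 11.80 and then 11.38, 11.47 and 11.45, and in pig 3 it was 11.28 and then 10.86, 10.93 and 10.79. Most of the difference was present by 2 h in each pig, with changes of 0.43, -0.42 and -0.43. The mean change was -0.10 ± 0.56 at 24 h (limma adjusted p = 0.823), and without pig 1 it was -0.42 (adjusted p = 0.274).

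**Figure D2:**
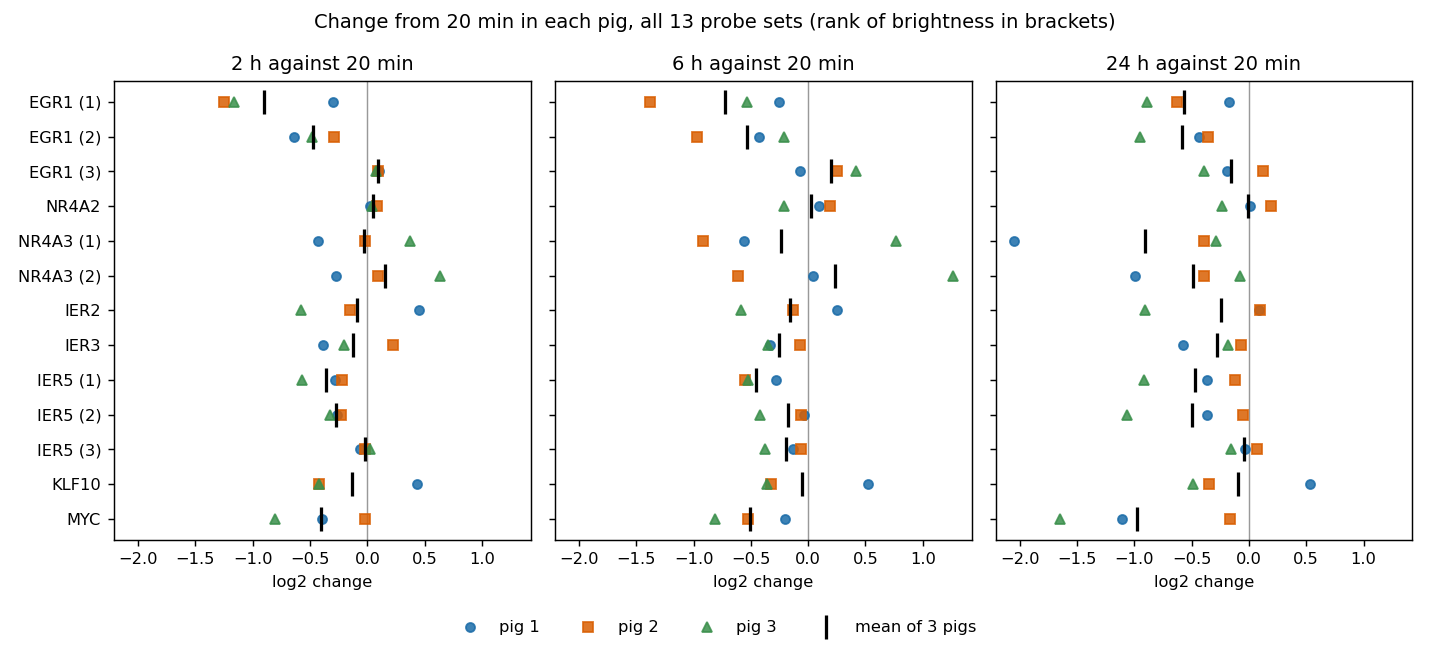
Log2 change from 20 min (x axis) of all 13 probe sets (y axis, rank of brightness in brackets) at 2 h, 6 h and 24 h; symbols are pigs and bars their mean. At 24 h all 13 means lie below 0, with pig 1 at -2.05 for NR4A3 and pig 3 at -1.65 for MYC as the lowest single values.

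As a group, the 8 genes were lower on average than at 20 min at each later time. Lower means at 2 h were seen in 7 of 8 genes, against 50% of all probe sets, with a median log2 change of -0.13 that was -0.29, -0.09 and -0.50 in pigs 1, 2 and 3. At 6 h there were 7 of 8 again, against 51.8%, with a median of -0.24, or -0.23, -0.42 and -0.44 in the pigs. At 24 h the mean was lower in 8 of 8 genes, against 48% of all probe sets, and the median was -0.37, or -0.27, -0.15 and -0.69 in the pigs. The lowest pig median was thus at 24 h in pig 3, at 6 h in pig 2 and at 2 h in pig 1. With arrays centred on the brightest 20% of probe sets, 7 of 8 genes had a lower mean at 24 h, as NR4A2 then stood at 0.04. Of all 23999 probe sets, 8540 had a lower mean at 24 h with that centring. The median over all probe sets was -0.0002, -0.006 and 0.008 at the 3 times.

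By limma at an adjusted p under 0.05, 0 of 13 probe sets were called at 2 h and at 6 h, as were 0% of all probe sets, and 0 of 13 at 24 h, against 0.00417%. At an unadjusted p under 0.05, 3 of 13 were lower at 2 h (3.94% of all), 4 at 6 h (4.54%) and 7 at 24 h (6.67%), and 0 were higher at any of these times (4.01%, 4.29% and 6.41%). The 7 sets at 24 h belong to 5 genes, EGR1, NR4A3, IER3, IER5 and MYC. In all 3 pigs, 5 of 13 sets were lower at 2 h (14% of all), 7 at 6 h (16.6%) and 8 at 24 h (16.7%). The 3 comparisons share the 20 min arrays and are not independent. The share of all probe sets called in either direction was 7.95%, 8.83% and 13.1% at the 3 times. The count of 7 at 24 h was 3 without pig 3 and 4 without only its 24 h array, while that share was 7% and 7.59%. The count of 3 at 2 h was 5 without pig 2, and 1 when any of 3 arrays was left out: pig 3 at 20 min, pig 1 at 2 h or pig 3 at 2 h. The share of all probe sets was then 6.1%, and 5.57%, 8.15% and 5.1% for the 3 arrays in order. Without the replicate block the counts at the 3 times were 0, 0 and 2, with 3.03%, 3.66% and 5.81% of all probe sets called in either direction. With pig as a random block they were 0, 2 and 2, with 6.33%, 7.31% and 11.1% of all.

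The later times were also compared with each other. From 2 h to 24 h the log2 change was -0.88 ± 0.65 for NR4A3 and -0.57 ± 0.37 for MYC, each lower in 3 of 3 pigs (limma adjusted p = 0.9375 for both). The brightest EGR1 set had the opposite sign, 0.34 ± 0.26 (limma adjusted p = 0.9405). It was higher at 24 h than at 2 h in 3 of 3 pigs. The other EGR1 sets did not share this sign. The brighter of them changed by -0.11 ± 0.33 and the dim set by -0.25 ± 0.25, each lower in 2 of 3 pigs. Between 2 h and 24 h, 3 of 13 sets were lower at an unadjusted p under 0.05 (2.85% of all) and 0 higher (2.38%). In either direction 5.23% of all were called. The count of 3 was 0 without pig 1 (5.23% then became 3.08%) and without the replicate block (2.18%). It was 0 too when 1 of 3 arrays was left out. These were pig 1 at 2 h (3.9%), pig 2 at 2 h (6.92%) and pig 1 at 24 h (4.14%). The count was 1 without the 24 h array of pig 3 (3.46%) and with pig as a random block (4.44%). It was 5 without pig 2 (7.66%) or its 24 h array (7.1%). From 2 h to 6 h it was 0 of 13 in either direction (1.5% lower and 0.758% higher of all), and from 6 h to 24 h it was 2 lower (3.8%) and 0 higher (4.28%). These 2 were the dim EGR1 set and the dimmer NR4A3 set. By the brightest set of each gene, 0 of 8 genes were called from 6 h to 24 h. Without the dimmest 40% of probe sets the count was 0 of 9, with 8.16% of the sets kept called in either direction. With all sets kept, 8.08% of all were called in either direction from 6 h to 24 h. The count of 2 was 0 without pig 3 (4.75%), its 6 h array (5.35%) or its 24 h array (4.63%). It was 1 without pig 1 (4.49%), its 6 h array (6.01%) or its 24 h array (5.45%). The count was 5 without pig 2 (8.21%), its 24 h array (9.63%) or the 20 min array of pig 3 (8.43%). It was 4 without the 6 h array of pig 2 (7.01%). Without the replicate block (3.89%), or with pig as a random block (7.29%), it was 1. None of the 13 passed at an adjusted p under 0.05 in these 3 comparisons, nor did any probe set of the table (0% in each).

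Differences between the pigs were wider than those between the times for most members, as they were for most probe sets. The range of the 3 pig means exceeded the range of the 4 time means in 9 of 13 probe sets, compared with 54.2% of all probe sets. For EGR1 the pig means were 5.69, 8.51 and 8.09, a range of 2.83 or 7.09-fold that only 15 probe sets exceeded, whereas its time means ranged over 0.90. Pig accounted for 90.2% of the sum of squares of EGR1, 83.9% for IER5, 80.1% for IER2, 94.0% for NR4A2, 63.7% for NR4A3, 60.3% for KLF10, 40.3% for MYC and 1.82% for IER3, compared with a median of 31.8% over all probe sets. These are 3 animals, so the values describe them and carry no test.

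**Figure D3:**
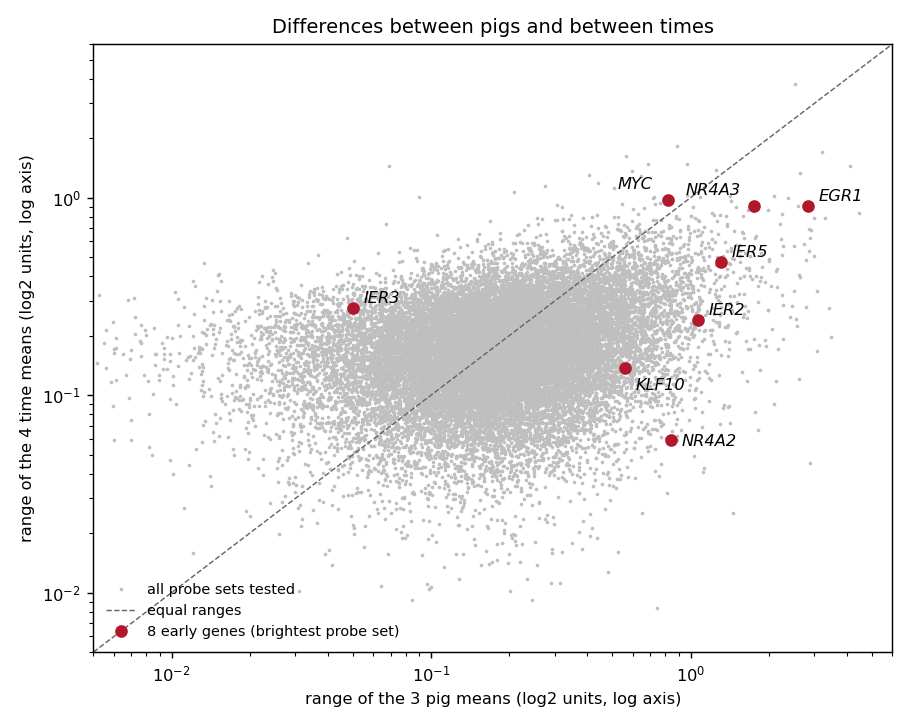
Range of the 3 pig means (x axis, log2 units on a log axis) and of the 4 time means (y axis, same units) for all 23999 probe sets in grey and the 8 early genes in red; the dashed line marks equal ranges. EGR1, NR4A3 and IER5 lie far right, and MYC and IER3 lie above the line.

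The order of the pigs was not shared by all members. On all 4 arrays pig 1 was below each of the 8 arrays of the other pigs for EGR1, NR4A2, IER2 and IER5, so for 4 of 8 genes or 5 of 13 probe sets, a pattern of 3.16% of all probe sets. The brighter NR4A3 set had its lowest mean in pig 2 (8.43), with 9.45 in pig 1 and 10.19 in pig 3, whereas the dimmer set was lowest in pig 1 (4.76, against 5.06 and 5.18). IER3 hardly differed between pigs (6.14, 6.12 and 6.09). Macrophage and leukocyte markers averaged 6.56, 6.34 and 6.29 in pigs 1, 2 and 3, endothelial markers (8 genes) 7.24, 7.52 and 7.36, fibroblast and matrix markers (7 genes) 8.54, 8.12 and 8.65, and satellite cell and myogenic markers (3 genes) 7.26, 7.62 and 7.72. Their part in the pig differences was not tested.

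Other measures moved with time in the same animals. From 20 min to 24 h the macrophage and leukocyte mean differed by -0.30, -0.17 and -1.19 in pigs 1, 2 and 3, and the fibroblast and matrix mean by 0.10, -0.04 and -0.57. Of the 11 macrophage and leukocyte genes, 7 had a lower mean at 24 h, against 48% of all probe sets. At an unadjusted p under 0.05, 6 were lower and 1 higher (6.67% and 6.41% of all). By limma at an adjusted p under 0.05, 0 passed (0.00417% of all). Endothelial markers differed by -0.01, 0.34 and -0.22 in pigs 1, 2 and 3, smooth muscle and pericyte markers (7 genes) by 0.01, 0.30 and -0.16, and satellite cell and myogenic markers by -0.19, -0.20 and -0.61. The arrays carry control transcripts read near both ends, and their 3′ minus 5′ log2 signal is used as a measure of transcript integrity. From 20 min to 24 h it differed by 0.38, -0.01 and 0.47 for EF1A in pigs 1, 2 and 3. For actin it differed by 0.09, -0.23 and -0.04, and for GAPDH by 0.06, 0.01 and 0.04. Pig 2 had the lowest difference for each of the 3 controls, while pig 3 was highest for EF1A and pig 1 for actin and GAPDH. The part of these measures in the early gene values was not tested.

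**Figure D4:**
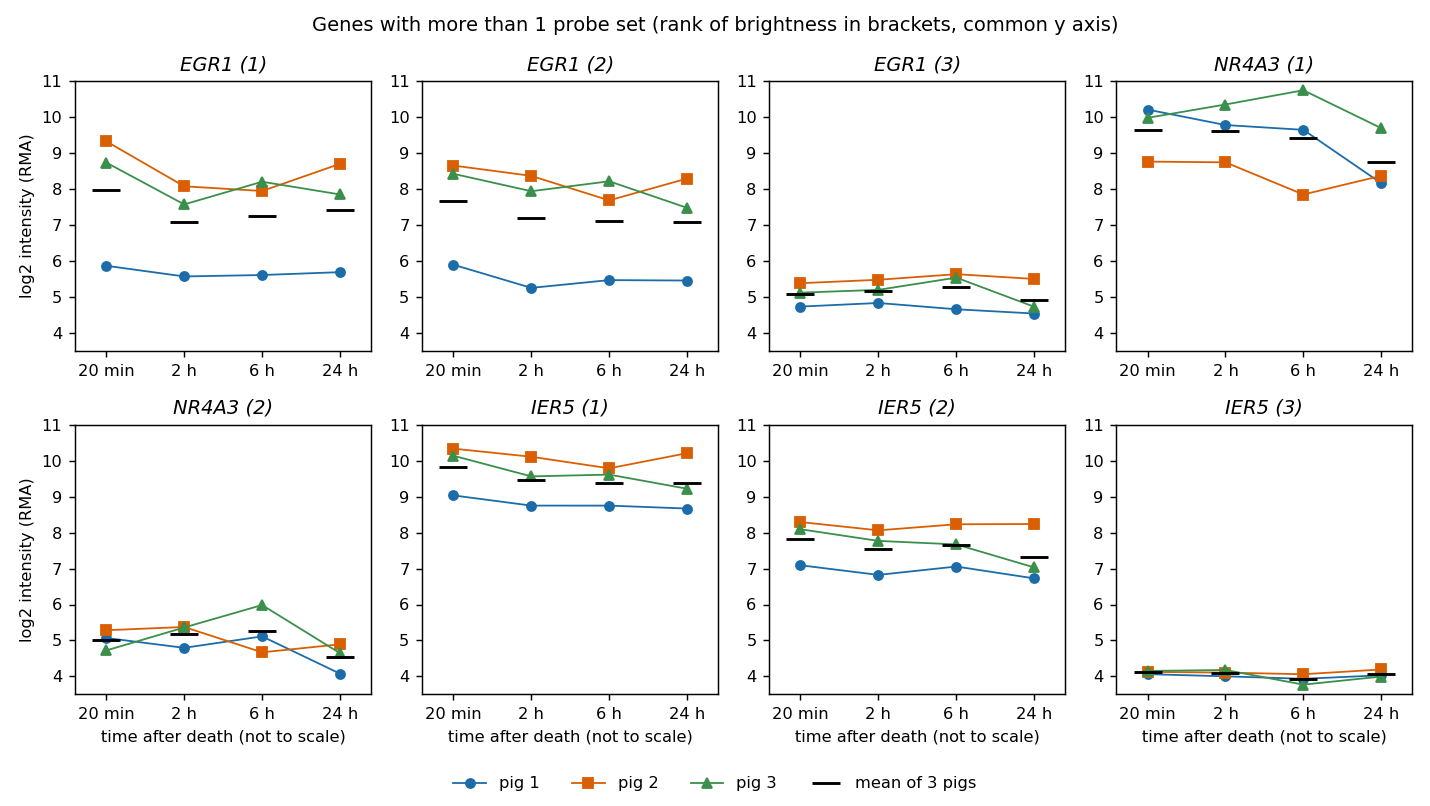
Log2 RMA intensity (common y axis) against time after death (x axis) for the 8 probe sets of EGR1, NR4A3 and IER5, ordered by brightness; lines join the arrays of 1 pig and bars are means. The third sets of EGR1 and IER5 reach at most 5.63 and 4.20 and show little of the course of the brighter sets.

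Within pigs, some members followed each other closely and others did not. With each pig's mean removed, IER5 and MYC had r = 0.885 over the 12 values, EGR1 and IER5 r = 0.77, and IER5 and IER2 r = 0.69. NR4A3 was closest to MYC (r = 0.64), while KLF10 was opposed to IER3 (r = -0.35) and to NR4A3 (r = -0.31). Over the 28 pairs of the 8 genes the median was 0.39, and 24 were above 0. All pairs share the same 12 arrays and their processing, so these values are a description.

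**Figure D5:**
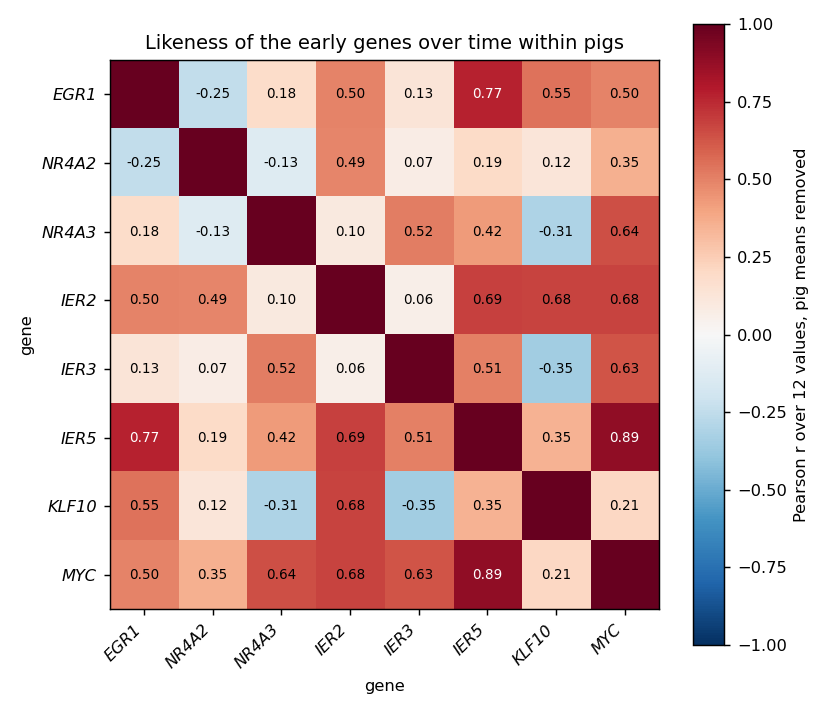
Pearson r between the 8 early genes over 12 array values with each pig's mean removed; rows and columns are genes and colour runs from -1 to 1. IER5 and MYC are the closest pair at 0.885, and KLF10 and IER3 the most opposed at -0.35.

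The genes outside the group with the most similar course were also sought, taking the highest r among 10056 other probe sets with 1 symbol, a choice that makes high values likely. For EGR1 these were HACD3 (r = 0.94), BCAS2 and CFAP20 (both r = 0.93). NR4A3 was closest to UTP4 (r = 0.97), LMCD1 and YME1L1 (both r = 0.90), and NR4A2 to SLC50A1 (r = 0.93), MYL9 (r = 0.89) and TAGLN2 (r = 0.865). For MYC they were GFPT1 and PAPSS1 (both r = 0.96) and ADAMTS1 (r = 0.94), and for IER5 CSRP2 (r = 0.95), the stretch-responsive ANKRD1 (r = 0.94) and ANKRD28 (r = 0.935). IER2 was closest to GLIPR2 (r = 0.95), the intermediate filament gene VIM and the kinase gene FYN (both r = 0.94). KLF10 was closest to the calpain inhibitor gene CAST (r = 0.96), PDPN and CCDC28A (both r = 0.92), and IER3 to BTBD9 (r = 0.88), TMEM138 and SELENOS (both r = 0.87).

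Other genes of the early response were examined as lists, and 0 genes of any list passed at an adjusted p under 0.05 in any comparison with 20 min. Of 16 other immediate early regulators, 6 were lower and 0 higher at 24 h at an unadjusted p under 0.05. Of all probe sets, 6.67% were lower and 6.41% higher. The mean was lower in 9 of the 16, against 48% of all probe sets, and the median log2 change was -0.20. The list mean differed by -0.32, -0.03 and -0.40 in pigs 1, 2 and 3. By the smallest F test p the leading genes were the stress factor ATF3 (-1.69 ± 0.94 at 24 h), the AP-1 subunit FOS (-0.84 ± 0.55), the clock-linked repressor BHLHE40 (-0.24 ± 0.28) and the AP-1 subunit FOSL2 (-0.61 ± 0.35). BHLHE40 stood apart at 6 h with a positive change of 0.27 ± 0.13. The 15 effectors and feedback inhibitors had a median of -0.28 at 24 h, with list mean changes of -0.17, 0.001 and -0.60 in pigs 1, 2 and 3. The mean was lower in 11 of the 15, against 48% of all probe sets. At an unadjusted p under 0.05, 4 were lower and 0 higher (6.67% and 6.41% of all). These 4 were the NF-κB inhibitor NFKBIA (-0.47 ± 0.25), the growth arrest gene GADD45A (-0.67 ± 0.20), the antiproliferative gene BTG2 (-0.69 ± 0.56) and the MAP kinase phosphatase DUSP1 (-0.62 ± 0.63).

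The factors that act before and after the early genes were measured too. Among 9 upstream kinases and factors, the median at 24 h was -0.03 (0.02 with arrays centred on the brightest probe sets). At an unadjusted p under 0.05, 1 was lower and 0 higher (6.67% and 6.41% of all). This was the kinase gene RPS6KA3 (-0.26 ± 0.08), while PRKACA, CREM and CREB1 of the cAMP pathway had changes of 0.15 ± 0.12, -0.16 ± 0.09 and 0.20 ± 0.13. Of 13 MYC partners and target genes, 3 were lower and 0 higher (6.67% and 6.41% of all), with a median of -0.11 (-0.06 with that centring). The 3 were the translation factor EIF4E (-0.36 ± 0.14), NME1 (-0.23 ± 0.18) and the ribosome assembly gene PPAN (-0.25 ± 0.08). The MYC antagonist MXD4 was at 0.04 ± 0.04.

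Of 7 genes of early TGF-beta signalling, 1 was lower and 0 higher at 24 h at an unadjusted p under 0.05. Of all probe sets, 6.67% were lower and 6.41% higher. The 1 gene was the repressor TGIF1 (-0.59 ± 0.23). TGFB1, SMAD4 and the receptor TGFBR1 were at 0.01 ± 0.43, -0.19 ± 0.10 and -0.15 ± 0.46, and the median was -0.15. Of 8 genes listed for the binding and decay of AU-rich messenger RNAs, 1 was lower and 0 higher (6.67% and 6.41% of all). This was the deadenylase CNOT7 (-0.19 ± 0.08). ZFP36, itself an early gene that is also in the list of effectors, was at -0.32 ± 0.49, HNRNPD at -0.04 ± 0.13 and PABPC1 at -0.11 ± 0.19, and the median was -0.07 (-0.02 with arrays centred on the brightest probe sets).

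The same unadjusted threshold was applied to the lists at the earlier times. Of all probe sets, 3.94% were lower and 4.01% higher at 2 h, and 4.54% and 4.29% at 6 h. At 24 h the shares were 6.67% and 6.41%. At 2 h, 2 other immediate early regulators and 3 effectors were lower, 1 upstream gene (PRKACA, 0.22 ± 0.14) was higher, and 0 genes of the remaining lists were called. At 6 h, 2 regulators, 1 effector (NFKBIA, -0.33 ± 0.19), 1 MYC target (PPAN, -0.28 ± 0.30) and 1 TGF-beta gene (TGIF1, -0.38 ± 0.33) were lower, and PRKACA (0.20 ± 0.17) was higher. The regulators lower at 6 h were ATF3 (-0.88 ± 0.66) and FOS (-0.60 ± 0.29).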

How the data were processed

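Biotin-labelled cRNA of 12 muscle portions was measured on Affymetrix GeneChips for pig (1 colour). The authors deposited 1 log2 value per probe set and array; RMA and affy are the tools named, per the submitters' processing notes, with no version given in the sources used here. RMA quantile-normalises the arrays, so a shift of all transcripts alike would not show. The number of arrays limits the precision.

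Groups and pigs came from the sample titles. Of 24123 probe sets, 124 controls were left out and the other 23999 entered the model unfiltered. Gene symbols are those of a 2016 platform annotation and may be outdated: 10099 probe sets had 1, 198 several and 13826 none. No build is named for the array, so no coordinates are given, and sequences were not analysed here.

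A linear model of all 12 arrays with time and pig as a fixed block was fitted in limma 3.58.1 (R 4.3.3), with 6 residual and 5.67 prior degrees of freedom. P-values are two-sided and Benjamini-Hochberg adjusted over all probe sets within a comparison, with 0.05 as the threshold. The model was also run on simulated arrays without differences between pigs, so that run cannot show how the block handles them. The pairing comes from the series' design, where each pig gave all times: deviations from the time means correlated with r from 0.409 to 0.656 for the 18 pairs of arrays of 1 pig. The portions of a time come from different pigs. The members and the lists were chosen with earlier results of these data known. All members are described; from each list up to 4 genes are named by smallest F test p, and the 3 most similar genes per member. Alternatives were other blocks, scalings, priors and weights, a filter on dim probe sets, the mean of a gene's sets, only the arrays compared, and each pig or array left out.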

Additional observations from a re-analysis of the deposited data

How the results depend on the processing

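Under 24 alternatives the count of member probe sets past limma's adjusted threshold was 0 in each comparison, except at 24 h against 20 min. There it ranged from 0 to 1 with pigs or arrays left out. The 1 was MYC without the 24 h array of pig 2, where 5 of all 23999 probe sets passed. Without the replicate block the member count was 0 in each comparison, and the smallest adjusted p of a member at 24 h was 0.805. The median log2 change of the 8 genes at 2 h ranged from -0.3828 to -0.09525 with pigs or arrays left out, and it was -0.3828 without pig 1. At 6 h and 24 h the median stayed below 0 under each alternative, between -0.3625 and -0.1645 and between -0.524 and -0.2842. Several members changed sign under an alternative, and the cause was not tested. With arrays centred on the brightest 20% of probe sets the dim IER5 set stood at 0.007729 at 2 h and 0.008357 at 24 h, and NR4A2 at 0.03709 at 24 h. With array weights NR4A2 stood at 0.02664 at 24 h and NR4A3 at 0.06907 at 2 h, and NR4A3 was at 0.06265 at 2 h with the mean of its sets. With pigs or arrays left out, the change at 2 h ranged from -0.02573 to 0.1251 for NR4A2, -0.3634 to 0.2849 and -0.1694 to 0.3643 for the brighter and dimmer NR4A3 sets, -0.3665 to 0.1703 for IER2, -0.2956 to 0.01383 for IER3, -0.09107 to 0.02502 for the dim IER5 set and -0.4337 to 0.02656 for KLF10. At 6 h it ranged from -0.0585 to 0.1438 for NR4A2, -0.7386 to 0.1886 and -0.2848 to 0.6586 for the NR4A3 sets, -0.368 to 0.1088 for IER2 and -0.3503 to 0.1099 for KLF10. At 24 h it ranged from -0.1144 to 0.09992 for NR4A2, -0.4536 to 0.09192 for IER2, -0.09358 to 0.0175 for the dim IER5 set and -0.4176 to 0.09498 for KLF10. No other member changed sign at these 3 times. The filter on dim probe sets left 9 of 13 member sets. Dim sets such as those of NR4A2 lie near the low end of the signal, which limits what they can show.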
